A study of Mus musculus with 8 samples.

Results

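T, Noto, Foxa1, Foxa2 and Foxa3 are the transcription factor genes by which the notochord is commonly recognised, and these 5 genes, chosen by name, were followed among the 43346 genes counted in notochord-derived cells (NDCs) of the mouse. All 5 were found in the files by symbol. RNA was sequenced from 4 litters at E12.5, before the notochord has become disc tissue, and from 4 litters at P0, the day of birth, when NDCs form the nucleus pulposus (NP). All animals were Shh-cre;ROSA:YFP, in which Cre made from the Shh locus switches on YFP for good, so that a marked cell may have stopped expressing Shh and other Shh-expressing lineages carry the same mark. Each sample pooled the animals of a litter, so n = 4 counts litters. At E12.5 whole notochords were dissected intact into TRIzol without sorting. At P0 only lumbar and thoracic discs were opened, shaken apart and sorted for YFP. Stage, isolation method and the region of the body axis taken cannot be told apart in these data.

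The notochord is the midline rod of the embryo that patterns the neural tube and somites and later gives rise to the NP. T (brachyury) is the founding T-box factor and is needed to form and keep the notochord. Noto is a homeobox factor of the node and early notochord. Foxa1, Foxa2 and Foxa3 are forkhead factors able to bind closed chromatin, and Foxa2 acts upstream of Shh and other notochord genes. The Foxa genes are also active in floor plate and in endodermal organs such as liver and gut, and T is active in the tail bud.

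The Foxa genes are paralogs, so the part of their coding sequence where they are most alike is shown, to let a reader see how a read is assigned to one of them. It covers 60 bases coding for part of the forkhead domain, 5′ to 3′, at coding bases 595 to 654 of Foxa1, 562 to 621 of Foxa2 and 442 to 501 of Foxa3 (Gencode M21 transcripts on GRCm38). Capitals mark the 7 positions at which the 3 genes are not all alike.
Foxa1: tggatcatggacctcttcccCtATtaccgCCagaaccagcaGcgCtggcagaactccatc
Foxa2: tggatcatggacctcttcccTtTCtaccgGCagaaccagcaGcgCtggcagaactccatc
Foxa3: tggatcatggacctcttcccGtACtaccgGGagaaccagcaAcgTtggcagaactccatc
Over the whole transcripts, the longest identical stretch was 38 bases between Foxa1 and Foxa2 and 20 bases between Foxa3 and either of the others, and no window of 100 bases was shared. Coding identity was 75.1% between Foxa1 and Foxa2, 72.2% between Foxa1 and Foxa3, and 71.8% between Foxa2 and Foxa3. No annotated gene overlapped any of the 5 in Gencode M21.

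Reads assigned to genes ranged from 4442775 to 7180221 per litter at E12.5 and from 6371842 to 8904050 in the P0 litters. The E12.5 litters NDP10.2 and NPD9.2 stood apart in the share of reads left unassigned as ambiguous, with 16.3% and 17.5% against 11.6% in NPD3 and 10.6% in NPD4. Levels are given in CPM, in which counts are divided by the TMM-scaled size of the library, as mean ± SD. On this scale 3 counts, taken as the floor, equal 0.353 CPM in the P0 litter NPD28 to 0.738 in the E12.5 litter NPD9.2. Between the stages 4321 of 15467 tested genes (27.9%) were called by edgeR's quasi-likelihood test at an adjusted p under 0.05, with 16.0% of tested genes higher at P0 and 12.0% lower. Of the 5 transcription factor genes, T, Foxa1 and Foxa2 passed the filter on low counts, 1 was called (Foxa1, lower at P0), and Noto and Foxa3 were not tested. Scaling to the summed keratins Krt8, Krt18 and Krt19 in place of TMM moved the median log2 fold change of all tested genes from 0.04 to -0.65 and left 2321 calls, of which 37.9% were higher, against 57.1% with TMM.

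T was the most abundant of the 5 genes at both stages and Foxa1 fell from E12.5 to P0, whereas the changes of T and Foxa2 did not pass the test. In bulk RNA, fewer cells of a type and less RNA per cell cannot be told apart. The levels of T, Noto and the Foxa genes in every litter are plotted on the log2 scale. In CPM per kilobase of exon, which allows genes to be compared, the order at E12.5 was T (252 ± 145), Foxa1 (43.2 ± 25.4), Foxa2 (3.73 ± 2.46), Foxa3 (0.787 ± 0.852) and Noto (0.0305 ± 0.0609). The same order held at P0, with T at 570 ± 322, Foxa1 at 9.17 ± 4.68, Foxa2 at 2.18 ± 1.44, Foxa3 at 0.265 ± 0.257 and Noto at 0.117 ± 0.138 CPM per kilobase. Within each stage the ranges over litters of T, Foxa1 and Foxa2 did not overlap each other. Foxa2 and Foxa3 were close, with lowest Foxa2 and highest Foxa3 litters of 2.04 and 1.97 at E12.5 and of 0.669 and 0.618 at P0, and the ranges of Foxa3 and Noto overlapped at both stages. By mean CPM per kilobase T ranked 74 of 24108 genes with a count at E12.5 and 39 of 30786 at P0, while Foxa1 ranked 614 and then 4864.

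**Figure D1:**
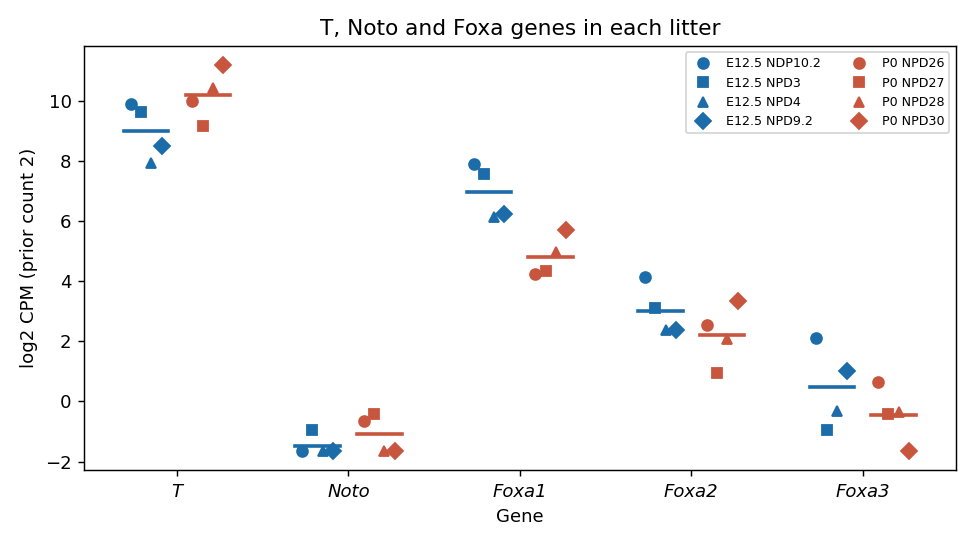
Level of each gene (log2 CPM, prior count 2, vertical axis) in the 4 E12.5 litters (blue) and the 4 P0 litters (red), with a line at the mean of each stage. Among these 5, Foxa1 is the gene whose stages do not overlap (70.0 to 239 CPM against 18.6 to 52.3), while the T, Foxa2, Foxa3 and Noto ranges do. In the notochord list Shh, Nog, Mnx1, Foxj1, Sox5, Cd24a, Lama1, Lama5 and Lamc1 do not overlap either. Separation is therefore not particular to Foxa1, and the share among all tested genes is not given.

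T lies on chromosome 17 (8434423 to 8442496, plus strand, ENSMUSG00000062327.6). At E12.5 it had 3994 counts in litter NDP10.2, 4048 in NPD3, 1998 in NPD4 and 1473 in NPD9.2, which are 942, 790, 242 and 362 CPM. At P0 it had 6402 counts in litter NPD26, 3979 in NPD27, 11653 in NPD28 and 15324 in NPD30, or 1007, 574, 1372 and 2323 CPM. The P0 litter NPD27 lay below both E12.5 litters NDP10.2 and NPD3, so the stages overlapped. The highest litter stood 3.90-fold above the lowest at E12.5 and 4.05-fold at P0. The mean was 584 ± 335 CPM at E12.5 and 1319 ± 745 at P0, a log2 fold change of 1.18 ± 0.52 (SE; 95% interval 0.03 to 2.32). Its adjusted p of 0.117 (edgeR's quasi-likelihood test, Benjamini-Hochberg) did not pass, at an unadjusted p of 0.0449. The fold change stayed above 0 in all 20 alternative analyses, from 0.57 with keratin scaling to 1.46 without NDP10.2, and passed in 0 of them. Without NPD30, the highest litter, it was 0.72.

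Foxa1 lies on chromosome 12 (57540628 to 57546916, minus strand, ENSMUSG00000035451.6). Its counts at E12.5 were 1013 in NDP10.2, 975 in NPD3, 579 in NPD4 and 306 in NPD9.2, which are 239, 190, 70.0 and 75.2 CPM. At P0 they were 118 in NPD26, 139 in NPD27, 265 in NPD28 and 345 in NPD30, or 18.6, 20.04, 31.2 and 52.3 CPM. Every P0 litter lay below every E12.5 litter. The mean fell from 144 ± 84.4 to 30.5 ± 15.6 CPM, a log2 fold change of -2.23 ± 0.49 (SE; 95% interval -3.31 to -1.15), which is 4.70-fold lower at P0 (edgeR's quasi-likelihood test, adjusted p = 0.00682). The decrease was called in all 20 alternative analyses, with log2 fold changes from -2.76 to -1.92.

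Foxa2 lies on chromosome 2 (148042877 to 148046969, minus strand, ENSMUSG00000037025.7) and was far less abundant than Foxa1. Its E12.5 counts were 73 in NDP10.2, 43 in NPD3, 40 in NPD4 and 20 in NPD9.2, or 17.2, 8.39, 4.84 and 4.92 CPM. Its P0 counts were 35 in NPD26, 11 in NPD27, 33 in NPD28 and 64 in NPD30, or 5.50, 1.59, 3.88 and 9.70 CPM. The stages overlapped widely, since the P0 litter NPD30 exceeded 3 of the 4 E12.5 litters. The log2 fold change of -0.77 ± 0.59 (SE; 95% interval -2.07 to 0.53) did not pass (adjusted p = 0.369, edgeR's quasi-likelihood test), and its interval takes in both decreases and increases. It ranged from -0.27 without NDP10.2 to -1.30 without NPD30 and to -1.49 with keratin scaling.

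Foxa3, on chromosome 7 (19013284 to 19023538, minus strand, ENSMUSG00000040891.5), had 17, 1, 4 and 7 counts in NDP10.2, NPD3, NPD4 and NPD9.2 and 8, 3, 4 and 0 in NPD26, NPD27, NPD28 and NPD30. It was under the filter on low counts. Fitted without that filter its log2 fold change was -1.51 ± 1.10 (SE; edgeR's quasi-likelihood test, adjusted p = 0.347), and without NDP10.2 and NPD9.2 it was 0.55. These 2 litters were also highest for the summed hepatocyte list, with 654 and 782 CPM against 54.1 in NPD3 and 255 in NPD4, and liver is a tissue that uses Foxa3. The part of such cells in the Foxa3 counts was not tested.

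Noto, on chromosome 6 (85423886 to 85428877, plus strand, ENSMUSG00000068302.8), was not detectable above the floor. A single read was counted in NPD3 among 21243301 reads of the E12.5 litters, and 5 were counted among 28776410 reads at P0, of which 2 were in NPD26 and 3 in NPD27. No fold is given for Noto, since every litter was at or under 3 counts. The floor covers counting error only.

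Ratios of 2 genes within a litter do not depend on the library size. T made up 76.2% to 81.6% of the reads of the 5 genes at E12.5 and 96.2% to 97.5% at P0, and Foxa1 16.9% to 22.1% and then 1.80% to 3.36%. For each read of Foxa1 there were 3.94 reads of T in NDP10.2, 4.15 in NPD3, 3.45 in NPD4 and 4.81 in NPD9.2. At P0 there were 54.3 in NPD26, 28.6 in NPD27, 43.97 in NPD28 and 44.4 in NPD30. The ratio was thus steadier among litters than either gene alone. At E12.5 its SD was 0.20 on the log2 scale, while that of log2 CPM was 0.93 for T and 0.91 for Foxa1.

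The log2 ratio of Foxa1 to T moved from -2.02 ± 0.20 (SD, n = 4) to -5.38 ± 0.39, a difference of -3.36, or 10.3-fold, and no litter overlapped (two-sided exact permutation test, p = 0.0286, adjusted over 7 ratios 0.0667). With 4 litters against 4, 0.0286 is the smallest p this test can give, and 3 of the 7 ratios reached it. None passed after adjustment, and none could with only 3 ratios at the smallest p. These 3 ratios are built from T, Foxa1 and Foxa2 and are not independent. The ratio of Foxa2 to T differed by -2.04 on the log2 scale, again without overlap (exact permutation p = 0.0286, adjusted 0.0667), with 50.0 to 94.1 reads of T per read of Foxa2 at E12.5 and 183 to 362 at P0. Foxa1 also moved relative to Foxa2, by -1.32 on the log2 scale, with the P0 litter NPD27 at 3.60 just under the lowest E12.5 litter at 3.79 (exact permutation p = 0.0286, adjusted 0.0667). Ratios with Foxa3 overlapped between the stages, with differences of -2.58 to T, -0.78 for Foxa1 to Foxa3 and 0.53 for Foxa2 to Foxa3 (exact permutation p = 0.143, 0.657 and 0.771). The ratio of Noto to T was at the floor and is not given.

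**Figure D2:**
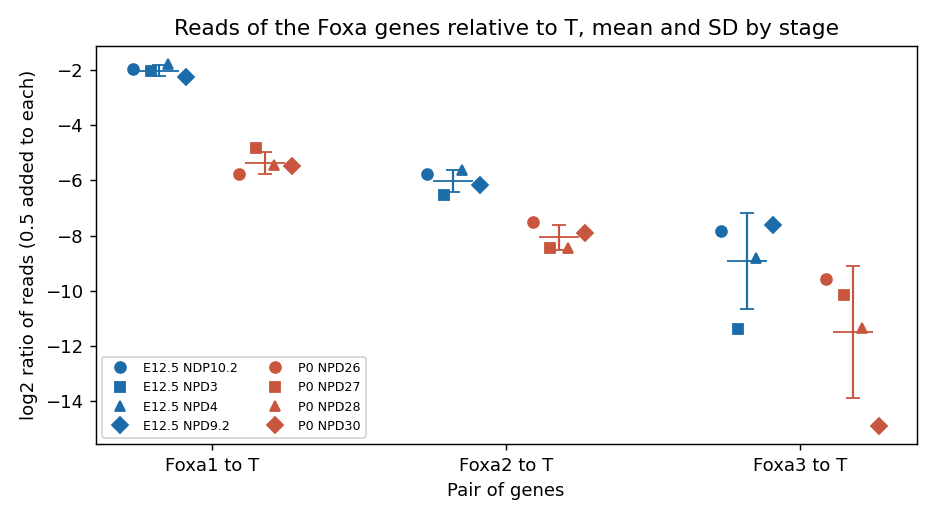
Log2 ratio of the reads of Foxa1, Foxa2 and Foxa3 to those of T (vertical axis, 0.5 added to each count) in each E12.5 (blue) and P0 (red) litter, with mean and SD by stage. For Foxa1 and Foxa2 all P0 litters lie below all E12.5 litters, and the wide Foxa3 spread comes from counts of 0 to 17.

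T was also read relative to the keratins Krt8, Krt18 and Krt19, which are abundant in the notochord and NP (reads per keratin read in each litter were set out after the values were seen). Krt19, which makes up part of that sum, was itself called higher at P0. For 100 keratin reads there were 92.0 reads of T in NDP10.2, 113 in NPD3, 97.5 in NPD4 and 76.5 in NPD9.2. At P0 there were 117 in NPD26, 139 in NPD27, 170 in NPD28 and 138 in NPD30. The stages did not overlap on this scale, though narrowly (113 in NPD3 against 117 in NPD26). The log2 SD was 0.23 at E12.5 and 0.22 at P0, against 0.93 and 0.84 for T in CPM. Foxa1 gave 15.9 to 28.2 reads per 100 keratin reads at E12.5 and 2.15 to 4.84 at P0, and Foxa2 1.04 to 1.95 and then 0.383 to 0.639, neither overlapping. The share of all tested genes that separate on this scale is not given. With keratin scaling their median log2 fold change was -0.65. In edgeR's quasi-likelihood test with the keratin counts as library sizes, Foxa1 passed (log2 fold change -2.76, adjusted p = 0.0029). In the same test T (0.57, adjusted p = 0.619) and Foxa2 (-1.49, adjusted p = 0.267) did not. That fit gave T an SE of 0.70, with a spread estimated partly from all tested genes. Its p is therefore not set against the log2 SD of T given above.

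Litters differed in marker genes of other cell types alongside these levels. All 12 genes of the leukocyte list were higher at P0, S100a9 (8.47), S100a8 (8.01) and Ptprc (6.14) most on the log2 scale, with summed levels of 65.0 to 180 CPM at E12.5 and 968 to 8440 at P0. NPD30, the P0 litter with most T, Foxa1 and Foxa2, had the lowest of these P0 sums. NPD28 had the highest sum (8440 CPM), with T at 1372 CPM and Foxa1 at 31.2, both above NPD26 and NPD27. In NPD4, the E12.5 litter with least T and Foxa1, the neural tube list summed to 1936 CPM against 117 to 174 in the other E12.5 litters, and 0 of its 5 tested genes were called (8 listed), or 2 higher without NPD4. The NPD4 sum came from the general neuron genes Stmn2 (689 CPM), Tubb3 (576), Dcx (378) and Elavl3 (289), while the progenitor gene Pax6, at 1.57 CPM, was at its lowest among the E12.5 litters, and Sox1, Neurog2 and Olig2 were at 1.21, 0.967 and 0.121 CPM. The part of leukocytes or neural cells in the levels of T and the Foxa genes was not tested.

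**Figure D3:**
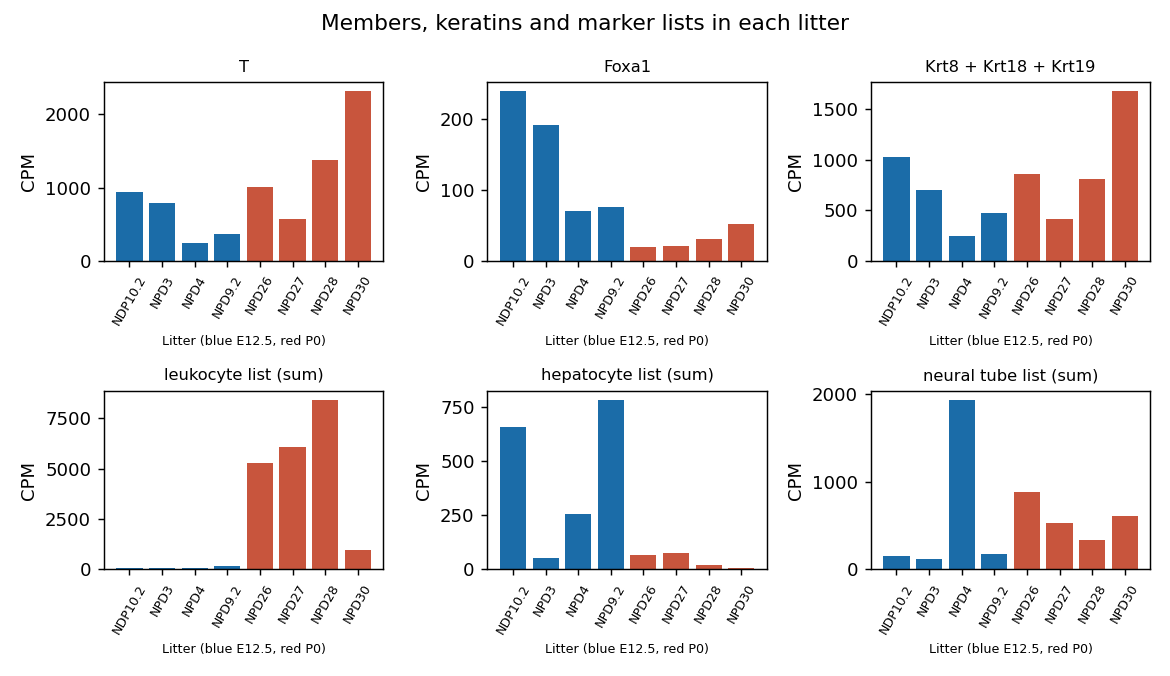
Level in CPM (vertical axes from 0) of T, Foxa1, the summed keratins and the summed leukocyte, hepatocyte and neural tube lists in each litter, E12.5 in blue and P0 in red. T and the keratins are both highest in NPD30 and lowest in NPD4, the leukocyte sum is at least 968 CPM at P0 and at most 180 at E12.5, and NPD4 stands out for the neural tube list.

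Lists of cell types that use T or a Foxa gene were counted in the same test. Each count here and in the next paragraph stands beside 16.0% of all tested genes called higher and 12.0% lower. Of the 7 floor plate genes, 3 were tested and 2 fell, Spon1 (-3.68) and Ntn1 (-1.05 in log2 fold change), while Nkx2-2, Nkx2-9 and Ferd3l were among those too low to test. Only 1 of the floor plate genes was called lower without NDP10.2, NPD3, NPD9.2, NPD27 or NPD28 in turn, without NDP10.2 and NPD9.2 together, and with limma-voom or keratin scaling. The tail bud list summed to 1.81 to 8.26 CPM at E12.5 and 3.93 to 9.52 at P0, with Msgn1 at 0 counts at E12.5 and 5 at P0, and its 1 tested gene of 9, Tbx6, was not called (log2 fold change 1.52, edgeR's quasi-likelihood test, adjusted p = 0.213). In the gut endoderm list, 6 of 14 genes were tested, of which 4 fell, among them Gata4 (-4.39) and Gata6 (-3.67), and Hhex rose (3.65), a gene also active in blood cells. Without NDP10.2 and NPD9.2 together, 1 gene of this list was called lower. Cdx1 and Pdx1 had no counts at E12.5.

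Of the 12 hepatocyte genes 9 were tested and 6 fell, led by Afp (-9.03), Alb (-7.92) and Apoa1 (-7.26), with summed levels of 54.1 to 782 CPM at E12.5 and 7.58 to 77.1 at P0. Among 10 erythroid genes 6 fell and 1 was called higher (Klf1, 1.43), with embryonic globins Hbb-y (-12.04), Hba-x (-11.35) and Hbb-bh1 (-10.05) leading the decreases. No gene of this list was called higher without NDP10.2, NPD3, NPD4, NPD27, NPD28 or NPD30 in turn, or with keratin scaling. All 8 sclerotome genes fell, Pax1 (-5.29), Meox1 (-4.64) and Tbx18 (-3.70) most, from summed levels of 141 to 219 CPM to 8.005 to 24.5, and 5 of the 8 were called lower without NDP10.2 and NPD9.2 together. Of 7 osteoblast genes 5 rose, with Ibsp at 0.158 CPM at E12.5 and 356 at P0, Dmp1 at 0 counts and then 11.3 CPM, and Alpl at 1.502 and 30.2 CPM. These lists name cell types that a dissection or sort could carry along. Bulk RNA does not show which cells made these transcripts, and the part of such cells in the fall of Foxa1 was not tested.

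The other genes of the notochord list moved in both directions. Of 16 genes, all tested, 3 rose, 7 fell and 6 were not called, with a median log2 fold change of -1.05 against 0.04 for all tested genes. Since 16.0% of all tested genes were called higher and 12.0% lower, the 3 rises are close to the general share. With keratin scaling, which uses Krt19 itself, 0 were called higher and 8 lower. The 3 calls higher became 1 without NPD3, NPD9.2 or NPD26 in turn and 0 without NDP10.2 and NPD9.2 together.

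Among secreted signals, Shh, the main patterning signal of the notochord, fell from 841 ± 456 to 5.94 ± 5.04 CPM (log2 fold change -7.14 ± 0.95, SE). Nog, a BMP antagonist, fell by 4.94 on the log2 scale, while Chrd, another BMP antagonist, had a value of 0.02 and was not called. Among transcription factors Mnx1 (-2.47), a homeobox gene, and Sox5 (-1.99) fell, and Foxj1 (1.93), the regulator of motile cilia, rose. Sox6 (-0.24) and Sox9 (-1.23), which with Sox5 act in the notochord sheath and cartilage, were not called.

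For sheath and matrix genes, the laminin chains Lama5 (-4.45), Lama1 (-3.71) and Lamc1 (-1.97) fell, and Col2a1 (-0.49), which encodes type II collagen, was not called. Krt19 (1.74) and the surface protein gene Cd24a (1.33) rose, whereas Krt8 (0.58) and Krt18 (-0.87) were not called. Foxa1 changed in the direction of the 7 list genes that fell. The value of T, which did not pass, had the sign of the 3 that rose and of the uncalled Krt8 and Chrd. A shared sign does not link these genes, and no such link was tested.

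**Figure D4:**
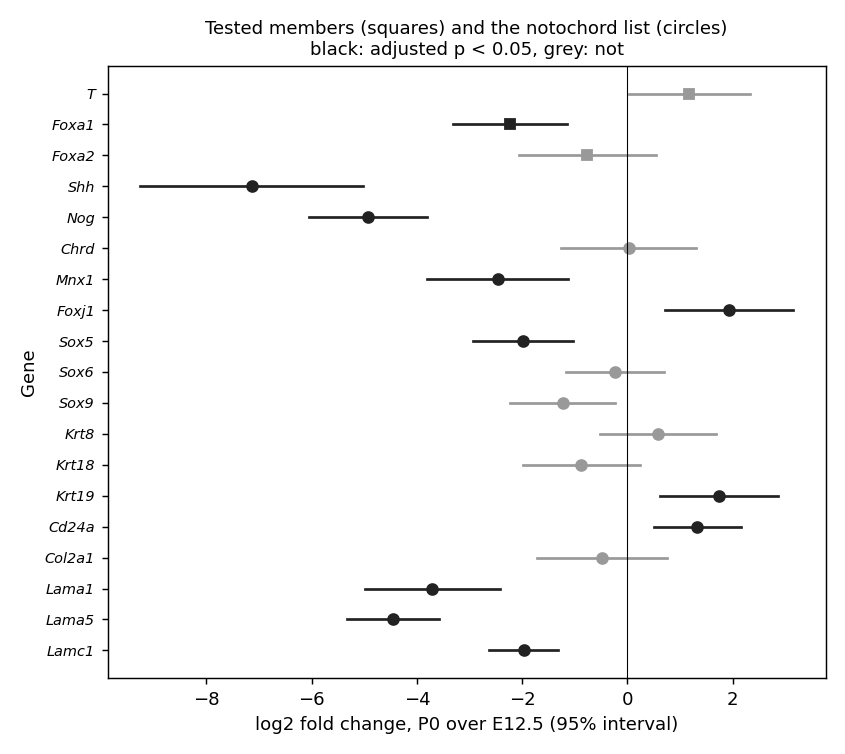
Log2 fold change, P0 over E12.5 (horizontal axis), with its 95% interval for T, Foxa1 and Foxa2 (squares) and the 16 genes of the notochord list (circles). Black marks an adjusted p under 0.05, reached by Foxa1, 7 list genes below 0 and 3 above 0.

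The wider families of these factors were counted as well. Of 16 other T-box genes 10 were tested, 5 fell (Tbx18, Tbx15, Tbx3, Tbx1 and Tbx2, from -3.70 to -2.58), 0 rose and 5 were not called, with a median of -2.66. For all tested genes 12.0% fell and 16.0% rose, with a median of 0.04. Tbx18, which is also on the sclerotome list, went from 16.3 to 1.25 CPM, Tbx15 from 13.9 to 1.72 and Tbx3 from 37.5 to 5.28.

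Of 41 other forkhead genes 23 were tested, 10 fell, 4 rose and 9 were not called, with a median of -0.91. With 16.0% of all tested genes called higher and 12.0% lower, 4 rises among 23 are close to the general share. The largest decreases were those of Foxf2 (-6.33), Foxf1 (-6.18), both mesodermal factors, and Foxd3 (-4.05), a neural crest factor. The 4 that rose were Foxj1 (1.93), Foxj2 (1.89), Foxn2 (1.203) and Foxo1 (0.88), none of which was called higher with keratin scaling. Of all forkhead genes on the list, 2 were called higher without NPD28 and 1 without NDP10.2 and NPD9.2 together. Foxa1, at -2.23, lay within this range.

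The genes whose profile over the 8 litters was most like that of each factor were found by the root mean square (RMS) difference of centred log2 CPM among 12641 genes. For T they were Tshr (0.17), the thyrotropin receptor, Smoc1 (0.19), a secreted calcium-binding protein, and Slc7a2 (0.21), a cationic amino acid transporter. Their own log2 fold changes of 1.07, 1.35 and 1.08 did not pass either (edgeR's quasi-likelihood test, adjusted p = 0.198, 0.0539 and 0.143).

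For Foxa1 the nearest were Gpc3 (0.26), a glypican, Galnt5 (0.29), a glycosyltransferase, and Col11a1 (0.30), a fibrillar collagen, all of which fell, by 2.27, 2.46 and 1.78 on the log2 scale. For Foxa2 they included Krt18 (0.27) and Kirrel3 (0.33), a cell adhesion protein, neither of which was called (log2 fold changes -0.87 and -0.96, edgeR's quasi-likelihood test, adjusted p = 0.225 and 0.0843). The litters share library composition across all genes, so these distances are a description of 8 points.

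**Figure D5:**
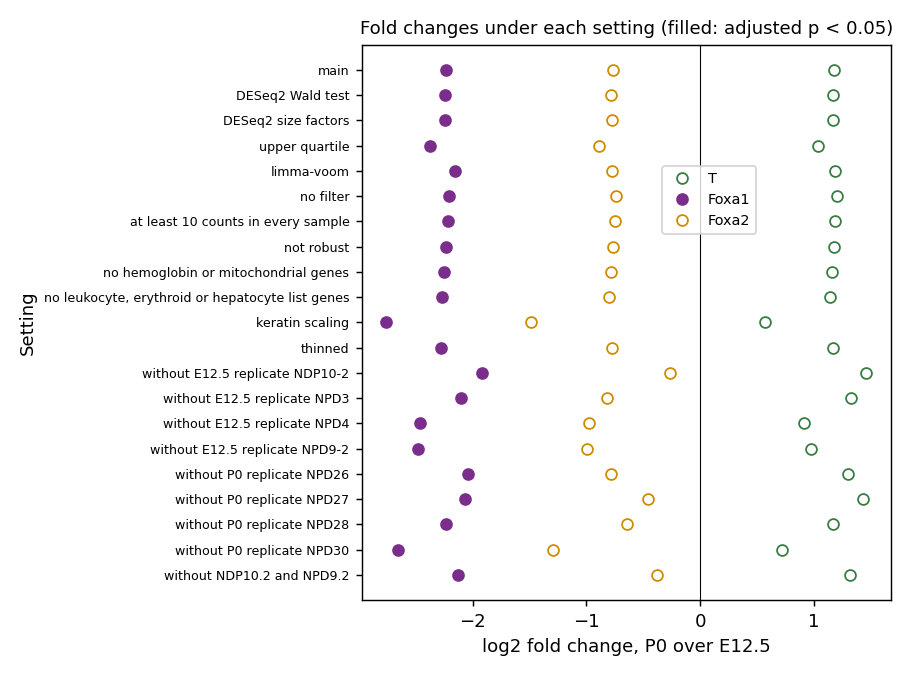
Log2 fold change, P0 over E12.5 (horizontal axis), of T, Foxa1 and Foxa2 under the reported setting and 20 alternatives (vertical axis), filled where the adjusted p was under 0.05. Foxa1 is filled throughout (-2.76 to -1.92), and T (0.57 to 1.46) and Foxa2 (-1.49 to -0.27) are open throughout.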

How the data were processed

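RNA-Seq libraries of 4 E12.5 and 4 P0 litters were grouped by their labels. The authors aligned reads with STAR 2.4.0j, counted them on Gencode M4 genes (GRCm38) with htseq-count and deposited raw counts, without normalization. The strand setting is not given in the sources used here. The share of tallied reads that fell on genes was 22.6% to 33.7% in E12.5 litters and 30.9% to 34.8% in P0 litters, and rows naming no gene were left out. Positions, exon lengths and transcripts were taken from Gencode M21, also on GRCm38.

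Counts were tested in R 4.3.3 with edgeR 4.0.16 (TMM, filterByExpr with minimum count 10 and total 15, robust quasi-likelihood F-test, Benjamini-Hochberg adjustment). The SE is the log2 fold change divided by the square root of F. Log2 CPM adds a prior count of 2 and ratios add 0.5 to each count. A two-sided exact permutation test was used for ratios. DESeq2 1.42.0, limma 3.58.1 (voom), other scalings and filters, thinning, and leaving out litters were alternatives. The test was checked on simulated data with a smaller share of changed genes than here and a spread set by the level of each gene alone. That check is not used as support for any result. The 5 genes, the lists and the tests were chosen with earlier results of these data known. Named genes were the 5 factors, all of the notochord list, the 3 genes of each other list with the largest change among those called, and the 3 nearest profiles to each tested factor among genes with mean log2 CPM of at least 2. Some genes that this rule selects are not reported here. Others named were chosen after their values were seen. P-values of edgeR set a change against a spread between litters that is moderated over all tested genes, not that of the gene alone. Those of the permutation test set the difference in mean log2 ratio between the stages against that of every other split of the litters.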

Additional observations from a re-analysis of the deposited data

Results flagged for a closer look

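Of 78 groups of 4 litters checked for a litter far from the rest, 6 were marked, and chance marks about 1 in 20 groups. The Noto level of 0.195 CPM in the E12.5 litter NPD3 is 1 read, against 0 in the other E12.5 litters. The log2 ratio of Foxa1 to Foxa2 was 4.49 in NPD3 against 3.79 to 3.90 in the other E12.5 litters. Lama1 was at 65.6 CPM in NDP10.2, against 15.2 to 21.9. Among summed lists, the leukocyte list stood at 180 CPM in NPD9.2 (65.0 to 83.5 in the other E12.5 litters), the neural tube list at 1936 CPM in NPD4 (117 to 174), and the osteoblast list at 1878 CPM in the P0 litter NPD30 (1088 to 1206).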

How the results depend on the processing

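T, Foxa1 and Foxa2 kept their direction and their side of the threshold in all 20 alternatives. The genes called numbered 2321 with keratin scaling, 2581 without NDP10.2 and NPD9.2, and 3612 to 4529 with each litter left out in turn. The notochord genes called higher were 0 with keratin scaling, 0 without NDP10.2 and NPD9.2, and 1 to 3 with each litter left out (1 without NPD3, NPD9.2 or NPD26), and those called lower were 4 where each sample had to have at least 10 counts. Without NDP10.2 and NPD9.2, Foxa3 turned to 0.55 and the Foxa2 to Foxa3 ratio difference to -0.59. With each litter left out, the Foxa1 to Foxa3 difference ran from -1.89 to 0.036, above 0 without NPD3, and the Foxa2 to Foxa3 difference from -0.66 to 1.19, below 0 without NPD30. The cause of these changes was not tested. With at least 10 counts in every sample, fewer genes were tested, and 4 sclerotome, 1 gut endoderm, 0 hepatocyte, 1 T-box and 6 forkhead genes were called lower and 7 leukocyte and 1 osteoblast genes higher. The differences of Foxa1 to T (-3.54 to -3.23), Foxa2 to T (-2.23 to -1.91) and Foxa1 to Foxa2 (-1.62 to -1.001) kept their sign.

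Counts of 0 to 17 limit Foxa3 and counts of 0 to 3 limit Noto. No paired analysis was possible because the litters of the stages share no replicate numbers.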

Other observations

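T2, a gene on chromosome 17 (8355992 to 8423513, plus strand) that ends 10.9 kb before T begins, was looked at after the values were seen. It had 18, 22, 11 and 13 counts in the E12.5 litters NDP10.2, NPD3, NPD4 and NPD9.2. At P0 it had 33 in NPD26, 38 in NPD27, 106 in NPD28 and 167 in NPD30. All P0 litters lay above all E12.5 litters in CPM, and the log2 fold change of 1.91 ± 0.60 (SE) passed (edgeR's quasi-likelihood test, adjusted p = 0.035), while that of T did not. The difference between the 2 genes was not tested. The RMS difference of its profile to that of T was 0.43, with 51 genes closer. The transcripts of T and T2 shared at most 13 bases in a row and no 100-base window. The nearest annotated neighbours of Noto and Foxa3, Smyd5 and Sympk, had log2 fold changes of -0.49 and -0.40 and were not called. Those of Foxa1 and Foxa2 were too low to test. Gm37291, next to Foxa1, had 22 counts over the E12.5 litters and 2 at P0, and 9030622O22Rik, next to Foxa2, had 5 and 12.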
